A study of Ovis aries with 12 samples.

Results

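The right ventricle of control lambs aged 4 to 6 weeks was compared with the right ventricle of fetal lambs in 8 of the 12 mRNA libraries of the series, 4 per group, chosen by their sample labels. The tissue was snap-frozen free wall of the right ventricle of sheep (Ovis aries). The control lambs had no shunt, and the sources used here do not give the gestational age of the fetal lambs. The remaining 4 libraries, from lambs of the same age range with a graft between aorta and pulmonary artery, entered no comparison here. Whether the libraries stem from separate animals is not stated in the labels, and p-values therefore measure only the spread between libraries, which may be technical. The free wall holds several cell types, and in such tissue fewer cells of a type and less RNA per cell cannot be told apart.

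Before birth the right ventricle pumps most of its output past the unexpanded lungs at a high pressure, and after birth the pressure in the pulmonary circulation drops and the left ventricle takes over the larger load. In the same period heart muscle cells of mammals leave the cell cycle, grow by enlarging, and turn from glucose and lactate to fatty acids as their main fuel. Thyroid hormone and glucocorticoids, which surge around birth, are known regulators of this maturation.

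Total counts were 20041416 to 44946875 per control library and 19111348 to 27330975 per fetal library. Transcripts of the 13 proteins encoded in mitochondrial DNA made up 46.1% ± 2.88 of the counts in control and 33.1% ± 6.39 in fetal libraries (SD, n = 4 each). The exact permutation test, two-sided, gave p = 0.0286, the smallest that 4 against 4 can give. Of 19 markers of ventricular heart muscle 4 are named in the table, among them the ventricular light chain MYL2, and none was at 0. Their summed level was 20760 to 28510 CPM (counts scaled to a fixed total per library after trimmed-mean, TMM, normalization) in control and 20210 to 30290 CPM in fetal libraries, so the sums overlapped. Most of the sum was MYL2, at 10520 to 17230 CPM in control and 12860 to 19950 CPM in fetal libraries, while TPM1 was higher in every control library, at 8573 to 9452 CPM in control and 5673 to 8140 CPM in fetal libraries. Markers of red blood cells, nerve, epicardium and lymphatic endothelium are not among the named rows and were not examined here.

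Across 12861 of 27054 genes that were tested, 969 were higher and 944 lower in control than in fetal ventricles at an adjusted p under 0.05 by edgeR's quasi-likelihood test, together 14.9% of those tested (7.53% higher and 7.34% lower). Without control 4 the calls numbered 1249 and without fetal 2 they numbered 1228, against 1913 with all 8 libraries. Of the higher genes 382 rose at least 2-fold and 106 at least 4-fold, and of the lower genes 484 fell at least 2-fold and 160 at least 4-fold. Calls were more frequent among genes with many reads: 9.36% of the 3216 genes with the lowest mean level were called, with 113 higher and 188 lower, and 21.9% of the 3215 with the highest, with 452 higher and 253 lower. When the change itself was tested against 2-fold with glmTreat of edgeR, 179 genes passed, 68 higher and 111 lower. In a principal component analysis of log2 CPM the first axis (42.4% of the variance) put the control libraries between 25.1 and 49.6 and the fetal libraries between -45.6 and -30.4. The second, with 12.8%, set control 3 at -44.3 apart from the other libraries, which lay between -18.1 and 24.7. Directions are relative to the TMM scaling. Scaled by library totals alone, the median gene shifted by -0.41 on the log2 scale, and the calls were 342 higher and 3409 lower, or 9.12% higher against 50.7% with TMM. The share of counts taken by mitochondrial transcripts moves with this shift, and its part in it was not tested. TMM without those genes gave 977 higher and 945 lower. That fit does not scale by library totals alone, so it cannot decide this question.

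**Figure D1:**
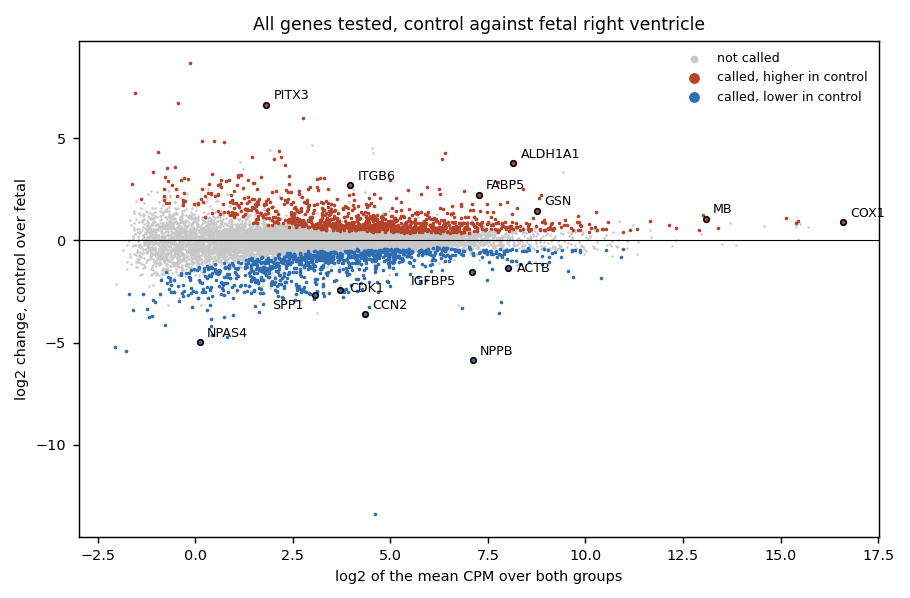
Each point is 1 of 12861 genes, with the log2 of its mean CPM over both groups on the horizontal axis and its log2 change, control over fetal, on the vertical axis; 969 genes called higher are red, 944 called lower are blue and the rest are grey. Labelled genes range from PITX3 at 6.63 to NPPB at -5.87, and the lone point near -13.4 is a gene without a symbol that had no count in the control libraries.

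Only 470 of the tested genes carry a symbol in the table, and of these 62 were higher and 42 lower. Among these 104 the libraries did not overlap between groups for 90, and among all 1913 called genes for 1670. A called gene was likely to show this by its selection, and over all tested genes, called or not, the share without overlap was 19.4%. The counts of called genes given below for gene lists are to be read against the shares over all tested genes, 7.53% higher and 7.34% lower. All list members carry a symbol, and of the tested genes with a symbol 22.1% were called, against 14.9% of all tested genes. The share among genes with a symbol is thus the closer comparison for a list. The other 12391 tested genes are listed by identifier or by a numbered name and are counted but not named. Among them ENSOARG00000019174 had no count in any control library and 99.3, 36.1, 36.8 and 21.9 CPM in fetal 1 to fetal 4. It was at least 1993-fold lower in control, taking 3 counts over the control group as the floor (edgeR adjusted p = 0.00804). It was the only called gene with 0 counts in all control libraries. ENSOARG00000018755 fell to 34.6 ± 18.4 CPM in control libraries, against 407 ± 68.8 CPM in fetal libraries (SD, n = 4 each). ENSOARG00000009963 rose to 13.3 ± 7.06 CPM in control libraries, against 0.216 ± 0.165 CPM in fetal libraries. The files do not pair these identifiers with names.

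Both mitosis genes that could be tested fell in control ventricles. CDK1, the kinase that drives entry into mitosis, had 2.67, 5.56, 5.26 and 3.03 CPM in control 1 to control 4, against 33.3, 20.1, 20.1 and 14.2 CPM in fetal 1 to fetal 4. Every control library lay below every fetal library, and CDK1 fell (log2 change -2.42, SE 0.31, edgeR adjusted p = 5.46e-04). The spindle pole kinase AURKA had 1.86, 1.63, 2.95 and 1.04 CPM in the control and 9.02, 4.27, 9.08 and 6.21 CPM in the fetal libraries and fell too (log2 change -1.92, SE 0.33, edgeR adjusted p = 0.00252). No other tested gene of the table's named rows is in the mitosis list. TIMELESS, which protects replication forks and is related to a clock gene of flies, had 2.72, 2.97, 2.41 and 1.54 CPM in the control and 8.94, 9.38, 5.59 and 5.303 CPM in the fetal libraries, again without overlap (log2 change -1.60, SE 0.28, edgeR adjusted p = 0.00232). CCND2, a D-type cyclin of the G1 phase, had 10.5, 27.0, 11.1 and 12.6 CPM in the control and 39.1, 39.02, 29.5 and 57.4 CPM in the fetal libraries and fell (log2 change -1.44, SE 0.32, edgeR adjusted p = 0.0141). Its highest control value, in control 2, lay just under its lowest fetal value, in fetal 3. The kinase gene PIM1 fell by 1.31 on the log2 scale (adjusted p = 0.0461).

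A few further called genes act on chromatin. The histone variant gene H2AZ1 changed by -0.85, DNMT1, which copies DNA methylation at replication, by -0.46 and PSIP1, a chromatin-bound coactivator, by -0.51 (edgeR adjusted p = 0.00766, 0.0445 and 0.0277). The inhibitor of cyclin-dependent kinases CDKN1A, known as p21, went the other way, with 9.03, 12.5, 8.21 and 6.82 CPM in control 1 to control 4, against 3.81, 3.36, 3.22 and 3.78 CPM in fetal 1 to fetal 4. It rose in all control libraries above every fetal one (log2 change 1.36, SE 0.22, edgeR adjusted p = 0.00139), and BTG3, an antiproliferative gene, rose by a log2 change of 0.42 (adjusted p = 0.0353). Of 11 tested growth regulators of heart muscle cells 1 rose and 2 fell, with a median log2 change of 0.38. FGF7, a fibroblast growth factor, was the one that rose (log2 change 0.73, SE 0.17, edgeR adjusted p = 0.0141). The kinases CDK2 and CDK4 stood at -0.48 (adjusted p = 0.2102) and -0.24 (adjusted p = 0.248), YAP1 and LATS1 of the Hippo pathway at -0.15 (adjusted p = 0.5496) and 0.38 (adjusted p = 0.268), and CCND3 at 0.58 (adjusted p = 0.0556), none called. Neither of the 2 tested genes of DNA replication and repair was called, with FEN1 at -0.85 (adjusted p = 0.0664) and RPA1 at 0.01 (adjusted p = 0.968). Some of these calls were lost when a library was left out. CCND2 lost its call without control 4 (adjusted p = 0.0538). PIM1 lost its call whichever library was left out except fetal 3 or fetal 4 (adjusted p up to 0.169). DNMT1 lost its call whichever library was left out except fetal 3 (adjusted p up to 0.142). PSIP1 lost its call without control 3, control 4, fetal 1, fetal 2 or fetal 4 (adjusted p up to 0.08699). BTG3 lost its call whichever library was left out except control 1 or fetal 3 (adjusted p up to 0.0974). FGF7 lost its call without fetal 2 (adjusted p = 0.0514). With library totals the calls of BTG3 (0.939) and FGF7 (0.269) were lost, by adjusted p.

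Natriuretic peptide and wall stress genes split into a lower and a higher group. NPPB, which encodes B-type natriuretic peptide, a hormone released by stretched heart muscle, had 11.5, 0, 0.475 and 5.903 CPM in control 1 to control 4, against 173, 490.1, 293 and 133 CPM in fetal 1 to fetal 4. All control values were far under the fetal ones, control 2 had no NPPB count, and fetal 2 was the highest library (log2 change -5.87, SE 1.32, edgeR adjusted p = 0.0324). The gene of the atrial peptide, NPPA, had 60.8, 0.842, 6.92 and 16.8 CPM in the control and 121, 455, 112 and 75.1 CPM in the fetal libraries. Its groups did not overlap either, but it was not called (log2 change -3.14, SE 1.26, edgeR adjusted p = 0.162). SPP1, osteopontin, an extracellular phosphoprotein of injured and loaded hearts, had 1.37, 1.35, 4.72 and 1.66 CPM in the control and 7.96, 15.3, 14.02 and 20.96 CPM in the fetal libraries (log2 change -2.66, SE 0.45, edgeR adjusted p = 0.00376). CCN2, a matricellular protein known as connective tissue growth factor, had 2.77, 1.52, 3.12 and 4.697 CPM in the control and 33.1, 55.2, 51.2 and 11.2 CPM in the fetal libraries (log2 change -3.62, SE 0.55, edgeR adjusted p = 0.00446), and its lowest fetal value belonged to fetal 4. ANKRD1, a stretch-responsive protein of the sarcomere's I band, averaged 1222 ± 490.1 CPM in control and 2081 ± 308 CPM in fetal libraries (SD, n = 4 each) without a call (adjusted p = 0.107).

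The same list held 2 genes that rose. CRYAB, a small heat shock protein that guards the muscle cytoskeleton, averaged 1469 ± 213 CPM in control and 945 ± 155 CPM in fetal libraries (log2 change 0.64, SE 0.15, edgeR adjusted p = 0.0152). FHL1, a LIM protein of striated muscle, averaged 48.2 ± 8.37 CPM in control and 30.7 ± 2.42 CPM in fetal libraries (log2 change 0.65, SE 0.14, edgeR adjusted p = 0.00844). NPPA is also the only atrial marker named in the table, so atrial tissue could not be assessed from other markers. NPAS4, a transcription factor induced by calcium signals in neurons, had 7 counts over the control and 203 over the fetal libraries, a ratio of 0.0327, exact 95% counting interval 0.01297 to 0.0686 (edgeR adjusted p = 9.00e-04). No member of the early response and stress list was called among 8 tested, while EGR1, an immediate early gene, had 9.201, 3.99, 5.26 and 4.36 CPM in the control and 169, 42.4, 17.1 and 4.32 CPM in the fetal libraries (adjusted p = 0.112). EGR1 was thus high in fetal 1 and at the control level in fetal 4. The calls of NPPB and CRYAB were not kept in every fit that left out a library. NPPB lost its call without control 4, fetal 1, fetal 2, fetal 3 or fetal 4 (adjusted p up to 0.0965). CRYAB lost its call without fetal 1 or fetal 2 (adjusted p up to 0.05497). On library totals CRYAB (0.125) and FHL1 (0.333) were no longer called, by adjusted p.

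**Figure D2:**
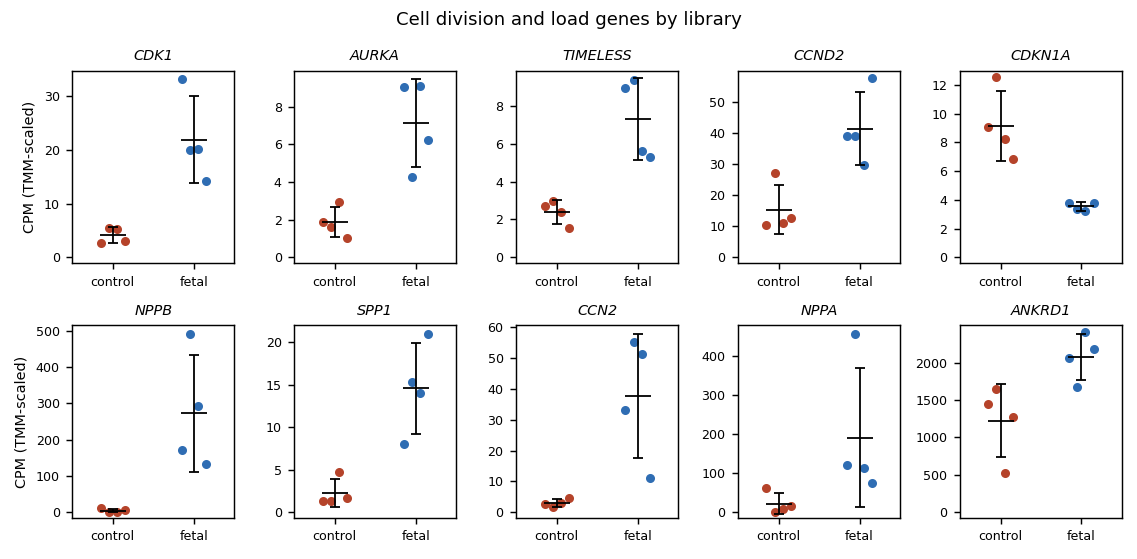
CPM of 10 genes, with a point per library, control left and fetal right, and the mean with SD as bars (n = 4 each). CDK1, AURKA, TIMELESS, CCND2, NPPB, SPP1 and CCN2 lie lower in control libraries and CDKN1A higher, while NPPA and ANKRD1, also lower in every control library, were not called.

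Among muscle proteins MB, myoglobin, the oxygen store of the muscle cell's cytoplasm, had 11598, 10822, 12512 and 11729 CPM in control 1 to control 4, against 4724, 4905, 7258 and 5696 CPM in fetal 1 to fetal 4. Control libraries lay close together and above every fetal library (log2 change 1.05, SE 0.16, edgeR adjusted p = 0.00119). TPM1, the tropomyosin that lies along the thin filament, averaged 9029 ± 377 CPM in control and 6441 ± 1146 CPM in fetal libraries (log2 change 0.49, SE 0.15, edgeR adjusted p = 0.0462). MYL2, the regulatory light chain of the ventricle, and MYOZ2, a Z-disc protein, stood at -0.21 (adjusted p = 0.504) and 0.28 (adjusted p = 0.402), and both overlapped between groups. Of 6 tested sarcomere genes 3 rose, these being TPM1, CRYAB and FHL1.

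All 5 tested cytoskeleton genes were called, 3 lower and 2 higher. ACTB, cytoplasmic actin, had 112, 168, 188 and 117 CPM in the control and 478, 407, 399.6 and 204 CPM in the fetal libraries (log2 change -1.35, SE 0.26, edgeR adjusted p = 0.00579). CNN1, calponin of smooth muscle and of immature heart muscle, had 15.1, 3.87, 5.26 and 12.2 CPM in the control and 25.98, 32.02, 21.1 and 41.8 CPM in the fetal libraries (log2 change -1.72, SE 0.43, edgeR adjusted p = 0.0284), and CFL1, cofilin, which severs actin filaments, changed by -0.50 (adjusted p = 0.0213). GSN, gelsolin, another actin-severing protein, had 706, 488, 572 and 771 CPM in the control and 172, 238, 243 and 279 CPM in the fetal libraries, without overlap (log2 change 1.44, SE 0.18, edgeR adjusted p = 3.66e-04). TUBA4A, an alpha-tubulin, averaged 211 ± 77.4 CPM in control and 61.7 ± 23.2 CPM in fetal libraries (log2 change 1.77, SE 0.34, edgeR adjusted p = 0.00925). TES and ILK, an actin-linked and an integrin-linked protein of adhesion sites, fell by log2 changes of -0.92 (adjusted p = 0.00372) and -0.35 (adjusted p = 0.0468). ACTB, CFL1, TUBA4A and other genes with near-identical copies may share reads, and the sources used here do not say how such reads were counted. Of these calls 4 were lost when a library was left out. TPM1 lost its call whichever library was left out except control 3 or fetal 3 (adjusted p up to 0.1298). CNN1 lost its call without control 3, control 4, fetal 1, fetal 2 or fetal 4 (adjusted p up to 0.0705). CFL1 lost its call without control 1, control 2, control 4 or fetal 1 (adjusted p up to 0.07798). ILK lost its call whichever library was left out (adjusted p up to 0.133). With library totals the call of TPM1 (0.512) was lost, by adjusted p.

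Respiratory chain genes were called in 1 direction. Of the 13 proteins encoded by mitochondrial DNA 5 were called, all higher, and the log2 change was above 0 for each of the 13, the median being 0.84 against -0.00262 over all tested genes. The cytochrome oxidase subunit gene COX1 had 120378, 129159.8, 148381 and 115315 CPM in control 1 to control 4, against 57491, 44414, 100739.7 and 74029 CPM in fetal 1 to fetal 4. Fetal 3 was the highest fetal library and still lay below every control library (log2 change 0.89, SE 0.23, edgeR adjusted p = 0.0223). The complex I subunit genes ND2, ND3 and ND4 changed by 1.09 (adjusted p = 0.0103), 1.21 (adjusted p = 0.00528) and 0.94 (adjusted p = 0.0158), and the ATP synthase subunit gene ATP6 by 0.84 (adjusted p = 0.02497). These genes come from shared transcripts and together form the mitochondrial share given above, and are not independent of each other.

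Of 11 tested nuclear-encoded genes of oxidative phosphorylation, the Krebs cycle and nucleotide exchange 4 were called, all higher, with a median of 0.45. NDUFA12, a complex I subunit, had 214, 251, 277 and 256 CPM in control 1 to control 4, against 137, 107, 202 and 151 CPM in fetal 1 to fetal 4. Its control values all exceeded the fetal ones (log2 change 0.74, SE 0.18, edgeR adjusted p = 0.0138). NDUFB6, also of complex I, averaged 475 ± 73.3 CPM in control and 275 ± 101 CPM in fetal libraries (log2 change 0.79, SE 0.22, edgeR adjusted p = 0.0295), and its groups overlapped, with fetal 3 at 426 CPM. The ATP synthase subunit genes ATP5MC1 and ATP5PO changed by 0.51 (adjusted p = 0.0148) and 0.49 (adjusted p = 0.0358). VDAC1, the main pore of the outer mitochondrial membrane, changed by 0.65 (adjusted p = 0.0183). SLC25A4, the heart's ADP/ATP carrier, stood at 0.51 (adjusted p = 0.1001), FH, fumarase, at 0.38 (adjusted p = 0.0853), and the carrier SLC25A5 at -0.38 (adjusted p = 0.181), none called. Leaving out a library ended calls here too. COX1 lost its call without fetal 1 or fetal 2 (adjusted p up to 0.0697). ND4 lost its call without fetal 1 (adjusted p = 0.0528). ATP6 lost its call without fetal 1, fetal 2 or fetal 4 (adjusted p up to 0.07997). NDUFB6 lost its call whichever library was left out except control 1 or fetal 3 (adjusted p up to 0.0896). ATP5MC1 lost its call without fetal 1 (adjusted p = 0.0507). ATP5PO lost its call without control 2, control 4, fetal 1, fetal 2 or fetal 4 (adjusted p up to 0.109). VDAC1 lost its call without control 4, fetal 1 or fetal 2 (adjusted p up to 0.0626). On library totals the medians of the mitochondrially and nuclear-encoded lists were 0.46 and 0.07, and NDUFA12 (0.0639), ATP5MC1 (0.493), ATP5PO (0.563) and VDAC1 (0.275) lost the call, by adjusted p.

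Lipid uptake and oxidation was the list with the highest median among those with at least 5 tested members. Of its 12 tested genes 5 rose and none fell, and the log2 change was above 0 for each of the 12, the median being 0.85, or 0.49 on library totals. LPL, lipoprotein lipase, which frees fatty acids from circulating triglyceride, had 582, 302, 167 and 336 CPM in control 1 to control 4, against 111, 72.98, 110.1 and 113 CPM in fetal 1 to fetal 4. Control 1 was highest and control 3 lowest among controls, yet every control value exceeded every fetal one (log2 change 1.77, SE 0.34, edgeR adjusted p = 0.00815). FABP5, which carries fatty acids in the cytoplasm, had 339, 179, 199 and 296 CPM in the control and 41.9, 38.6, 82.9 and 52.4 CPM in the fetal libraries (log2 change 2.23, SE 0.28, edgeR adjusted p = 7.53e-04). SLC25A20, which carries acylcarnitines into the mitochondrion, had 59.1, 45.1, 49.98 and 65.8 CPM in the control and 26.04, 22.9, 32.4 and 37.5 CPM in the fetal libraries (log2 change 0.89, SE 0.17, edgeR adjusted p = 0.00469), and HADHA, of the mitochondrial trifunctional protein of beta-oxidation, averaged 702 ± 96.1 CPM in control and 467 ± 34.3 CPM in fetal libraries (log2 change 0.59, SE 0.13, edgeR adjusted p = 0.0102). UCP2, an inner membrane carrier, had 14.1, 2.301, 6.82 and 19.7 CPM in the control and 2.61, 1.8996, 1.72 and 1.74 CPM in the fetal libraries, with control 2 inside the fetal range (log2 change 2.42, SE 0.56, edgeR adjusted p = 0.0206).

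The remaining 7 were not called. FABP3, the heart fatty acid binding protein, stood at 0.45 (adjusted p = 0.0937), CPT1B, the muscle carnitine palmitoyltransferase, at 0.50 (adjusted p = 0.0637), CPT1A, its liver form, at 0.54 (adjusted p = 0.325), and PLIN5, a lipid droplet protein, at 0.82 (adjusted p = 0.0924). FABP4, carried by fat cells and capillary endothelium, had 10.1, 1.07, 0.577 and 4.57 CPM in the control and 0.0573, 0.0791, 1.13 and 0.0726 CPM in the fetal libraries (log2 change 3.82, SE 1.27, edgeR adjusted p = 0.08804), and LIPE, hormone-sensitive lipase, stood at 1.09 (adjusted p = 0.0934). None of the adipocyte markers was called. The 4 of 6 named in the table were ADIPOQ and PLIN1, which had too few reads to be tested, and LIPE and FABP4, which are also in the lipid list. They summed to 4.58 to 22.2 CPM in control and 2.18 to 5.32 CPM in fetal libraries, and these ranges overlap. Of these the defining markers ADIPOQ and PLIN1 were near 0, at 0.204 to 0.561 and 0 to 0.0831 CPM in control and 0 to 1.45 and 0 to 0.258 CPM in fetal libraries. The part of fat cells in these values was not tested. In lipid synthesis SQLE, squalene epoxidase of the cholesterol pathway, fell by a log2 change of -0.96 (adjusted p = 0.0205), the 1 call among 10 tested genes of fat cells and lipid synthesis. The calls of UCP2 and SQLE depended on which library was left out. UCP2 lost its call without fetal 1, fetal 2, fetal 3 or fetal 4 (adjusted p up to 0.0688). SQLE lost its call without control 2, control 4, fetal 1 or fetal 2 (adjusted p up to 0.0677). On library totals HADHA (0.366) was no longer called, by adjusted p.

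Enzymes of glycogen breakdown and NADPH supply rose while the glycolytic genes tested were not called. PYGM, muscle glycogen phosphorylase, had 462, 502, 426 and 451 CPM in control 1 to control 4, against 261, 257, 295 and 311 CPM in fetal 1 to fetal 4. Every control value lay above every fetal one (log2 change 0.71, SE 0.12, edgeR adjusted p = 0.00219), and PYGL, the liver isoform, averaged 71.4 ± 21.5 CPM in control and 42.6 ± 9.83 CPM in fetal libraries (log2 change 0.74, SE 0.22, edgeR adjusted p = 0.0446). PRKAG3, a regulatory subunit of AMP-activated kinase that senses energy state in muscle, rose by a log2 change of 0.64 (adjusted p = 0.0434). IDH1, the cytosolic isocitrate dehydrogenase that makes NADPH, had 281, 127, 129 and 265 CPM in the control and 34.2, 27.2, 50.2 and 40.1 CPM in the fetal libraries, a rise in every control library (log2 change 2.40, SE 0.31, edgeR adjusted p = 0.00103). GLRX, glutaredoxin, which uses NADPH-derived reducing power, averaged 8.94 ± 1.62 CPM in control and 2.86 ± 0.552 CPM in fetal libraries (log2 change 1.64, SE 0.22, edgeR adjusted p = 5.06e-04). The glycolytic genes GAPDH and PGK1 stood at -0.08 (adjusted p = 0.804) and 0.12 (adjusted p = 0.669). SLC2A3, a high-affinity glucose transporter, had 142, 191, 218 and 177 CPM in the control and 791, 415, 229.8 and 269 CPM in the fetal libraries and missed the threshold (log2 change -1.23, SE 0.37, edgeR adjusted p = 0.0577). PDXK, pyridoxal kinase, which makes the cofactor of glycogen phosphorylase and of transaminases, averaged 11.4 ± 4.49 CPM in control and 3.28 ± 0.976 CPM in fetal libraries (log2 change 1.80, SE 0.30, edgeR adjusted p = 0.00222), and UROD, of heme synthesis, changed by 0.47 (adjusted p = 0.0449). None of 4 tested antioxidant genes was called, SOD1 at -0.20 (adjusted p = 0.808) and TXN at 0.06 (adjusted p = 0.814) among them. Leaving out a library ended 3 calls. PYGL lost its call whichever library was left out except control 3 or fetal 1 (adjusted p up to 0.124). PRKAG3 lost its call whichever library was left out except control 2 or fetal 2 (adjusted p up to 0.1204). UROD lost its call without control 1, control 4, fetal 1, fetal 2 or fetal 4 (adjusted p up to 0.127). Library totals left PYGM (0.101), PYGL (0.317), PRKAG3 (0.532) and UROD (0.790) uncalled, by adjusted p.

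**Figure D3:**
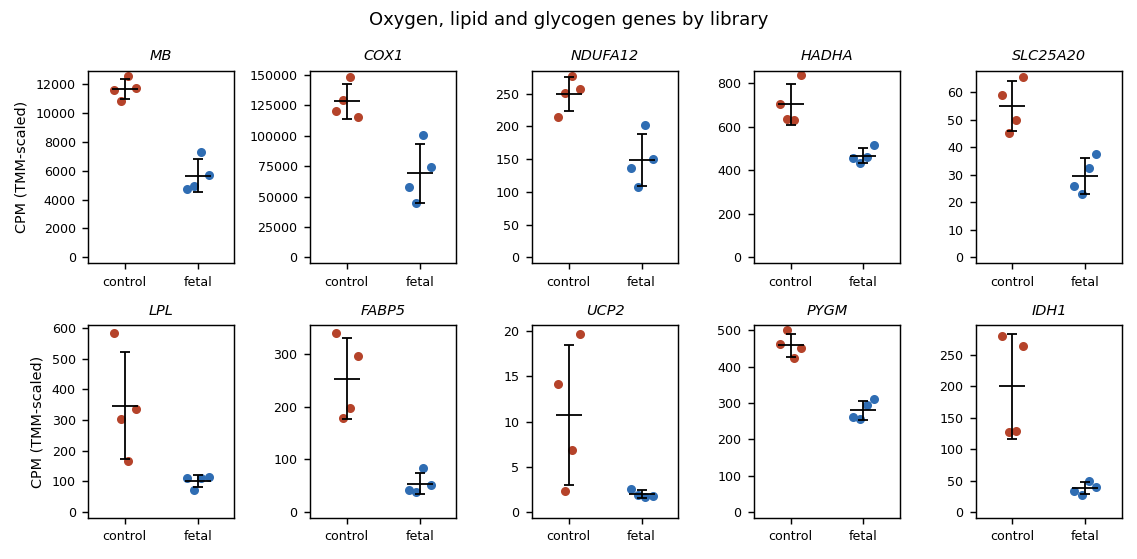
CPM of 10 metabolic genes, with a point per library, control left and fetal right, and the mean with SD as bars (n = 4 each). MB, COX1, NDUFA12, HADHA, SLC25A20, LPL, FABP5, PYGM and IDH1 have all control values above all fetal values, and UCP2 has 1 control value inside the fetal range.

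Matrix genes fell more often than they rose. Of 14 tested members of the matrix and protease list 7 fell and 3 rose, with a median of -0.40, or -0.82 on library totals. PLAU, urokinase, an activator of plasmin, had 13.8, 19.9, 26.9 and 15.01 CPM in the control and 38.7, 60.6, 56.8 and 34.9 CPM in the fetal libraries (log2 change -1.34, SE 0.24, edgeR adjusted p = 0.00391). MMP14, a membrane-bound collagenase, had 17.2, 21.1, 23.3 and 18.8 CPM in the control and 42.7, 47.9, 30.7 and 33.3 CPM in the fetal libraries (log2 change -0.94, SE 0.17, edgeR adjusted p = 0.00276). TIMP1, an inhibitor of matrix proteases, averaged 8.505 ± 2.35 CPM in control and 14.6 ± 1.25 CPM in fetal libraries (log2 change -0.78, SE 0.19, edgeR adjusted p = 0.0175), and TGFB1, the main fibrogenic cytokine, 19.9 ± 4.52 CPM in control and 31.03 ± 1.69 CPM in fetal libraries (log2 change -0.65, SE 0.16, edgeR adjusted p = 0.0192). SPARC, a collagen-binding glycoprotein, and BGN, the proteoglycan biglycan, changed by -0.44 (adjusted p = 0.0352) and -0.39 (adjusted p = 0.0466).

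The 3 matrix genes that rose were TIMP3, SERPINF1 and FURIN. TIMP3, the matrix-bound inhibitor, had 722, 349.5, 297 and 454 CPM in control 1 to control 4, against 183, 132, 188 and 111 CPM in fetal 1 to fetal 4. TIMP3 and TIMP1 changed in opposite directions, and neither overlapped between groups (log2 change 1.57, SE 0.28, edgeR adjusted p = 0.00448). SERPINF1, pigment epithelium-derived factor, an antiangiogenic serpin, had 22.6, 26.5, 29.3 and 29.4 CPM in the control and 9.62, 3.25, 9.88 and 4.36 CPM in the fetal libraries (log2 change 1.99, SE 0.32, edgeR adjusted p = 0.002503), and FURIN, a proprotein convertase, averaged 33.7 ± 12.1 CPM in control and 14.96 ± 0.596 CPM in fetal libraries (log2 change 1.17, SE 0.22, edgeR adjusted p = 0.00474). HYAL2, a hyaluronidase, rose by a log2 change of 0.71 (adjusted p = 0.0134). ITGB6, an integrin chain known from epithelium, had 23.3, 29.4, 23.9 and 32.5 CPM in the control and 4.73, 1.86, 6.82 and 3.52 CPM in the fetal libraries (log2 change 2.69, SE 0.32, edgeR adjusted p = 3.98e-04), the 1 call among 8 integrins and adhesion genes. DCN, decorin, a general fibroblast product, and MMP2, gelatinase A, stood at -0.15 (adjusted p = 0.496) and -0.40 (adjusted p = 0.174). The 4 fibroblast markers named in the table summed to 893 to 1306 CPM in control and 668 to 822 CPM in fetal libraries, of which TIMP3 alone took 297 to 722 and 111 to 188 CPM. Their part in these results was not tested. Removing a library ended 4 of the matrix calls. TIMP1 lost its call without control 1, control 2, control 4 or fetal 1 (adjusted p up to 0.0587). TGFB1 lost its call without control 1, control 4 or fetal 1 (adjusted p up to 0.0614). SPARC lost its call whichever library was left out except control 3 or fetal 3 (adjusted p up to 0.127). BGN lost its call whichever library was left out except control 3 or fetal 4 (adjusted p up to 0.137). HYAL2 lost its call on library totals, with adjusted p = 0.291.

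Vessel genes that were called fell. KDR, the main receptor of vascular endothelial growth factor on endothelium, had 54.1, 72.3, 71.2 and 56.2 CPM in control 1 to control 4, against 101, 117, 107 and 103 CPM in fetal 1 to fetal 4. The values were tight within groups and did not overlap (log2 change -0.75, SE 0.13, edgeR adjusted p = 0.00233). SLCO2A1, the prostaglandin transporter of endothelium, had 8.47, 6.96, 12.05 and 7.44 CPM in the control and 21.7, 20.2, 25.6 and 20.4 CPM in the fetal libraries (log2 change -1.33, SE 0.19, edgeR adjusted p = 7.26e-04), and EDNRA, the endothelin receptor of smooth muscle, had 7.98, 13.1, 6.31 and 13.3 CPM in the control and 24.3, 14.6, 17.8 and 31.7 CPM in the fetal libraries (log2 change -1.13, SE 0.29, edgeR adjusted p = 0.0238). Of 9 tested genes of endothelium, angiogenesis and vascular tone these 3 were called lower and none higher, with a median of -0.67. The log2 change was below 0 for 8 of the 9 and above 0 for 1, at 1.10 without a call. VEGFA, the ligand of KDR, had 125, 142, 121 and 88.7 CPM in the control and 157, 152, 157 and 142 CPM in the fetal libraries without overlap or call (log2 change -0.35, SE 0.14, edgeR adjusted p = 0.121), and AQP1, a water channel of endothelium and red cells, stood at -0.25 (adjusted p = 0.338). Both tested mural cell genes fell, CNN1 and RGS4, a regulator of G protein signalling, at -1.30 (adjusted p = 0.0383), and so did GNG11, a G protein gamma subunit, at -0.77 (adjusted p = 0.0401). The summed level of the 2 endothelial markers in the table, KDR and AQP1, was 75.2 to 104 CPM in control and 132 to 144 CPM in fetal libraries, and that of the 2 mural markers, CNN1 and RGS4, 4.603 to 15.69 CPM in control and 22.13 to 43 CPM in fetal libraries. The part of these cells in the vessel results was not tested. Some of the vessel calls were lost without a library. EDNRA lost its call without control 1, fetal 1 or fetal 4 (adjusted p up to 0.0722). RGS4 lost its call whichever library was left out except fetal 3 (adjusted p up to 0.129). GNG11 lost its call whichever library was left out except control 3 or fetal 4 (adjusted p up to 0.126). On library totals KDR, SLCO2A1, EDNRA, RGS4 and GNG11 stayed called.

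Called growth factor binding proteins were lower in control ventricles. IGFBP5, which binds insulin-like growth factors, had 62.3, 59.4, 45.6 and 108 CPM in the control and 173, 191, 179.7 and 269 CPM in the fetal libraries (log2 change -1.56, SE 0.25, edgeR adjusted p = 0.00229), and IGFBP4 fell by a log2 change of -0.54 (adjusted p = 0.0425). All 5 tested IGFBP genes had negative changes, 2 of them called. FST, follistatin, which traps activins and myostatin, had 12 counts over the control and 95 over the fetal libraries, a ratio of 0.1197, exact 95% counting interval 0.0597 to 0.219 (edgeR adjusted p = 0.0147). PEG10, an imprinted retrotransposon-derived gene of placenta and fetus, had 1.71, 1.96, 0.746 and 2.08 CPM in the control and 4.96, 4.87, 2.202 and 4.98 CPM in the fetal libraries (log2 change -1.40, SE 0.36, edgeR adjusted p = 0.0201). Fetal 3 came close to the control range. NR5A2, an orphan nuclear receptor, and ARNT2, a bHLH-PAS partner protein, changed by -1.85 (adjusted p = 0.00868) and -2.10 (adjusted p = 0.0459). ST6GAL1, a sialyltransferase of the Golgi, had 0.954, 3.99, 0.950 and 2.87 CPM in the control and 14.5, 14.7, 6.55 and 12.2 CPM in the fetal libraries (log2 change -2.50, SE 0.48, edgeR adjusted p = 0.007202).

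Of 8 tested nuclear receptors and hormone enzymes 2 rose and 1 fell, and the 1 tested retinoic acid gene rose. ALDH1A1, that gene, which makes retinoic acid from retinal, had 397, 698, 352 and 676 CPM in control 1 to control 4, against 28.2, 13.1, 70.8 and 43.4 CPM in fetal 1 to fetal 4. Every control value lay far above every fetal one (log2 change 3.77, SE 0.55, edgeR adjusted p = 0.00453). THRB, a thyroid hormone receptor, had 7.71, 7.58, 4.61 and 8.73 CPM in the control and 2.38, 3.44, 3.06 and 4.94 CPM in the fetal libraries, with control 3 just inside the fetal range (log2 change 1.05, SE 0.27, edgeR adjusted p = 0.0206). THRA, the other thyroid hormone receptor gene, stood at 0.09 (adjusted p = 0.663) and NR3C1, the glucocorticoid receptor gene, at -0.33 (adjusted p = 0.161). HSD11B1, which regenerates active glucocorticoid inside cells, averaged 2.83 ± 0.6496 CPM in control and 1.18 ± 0.447 CPM in fetal libraries (log2 change 1.26, SE 0.33, edgeR adjusted p = 0.0233). FOXO3, a transcription factor held in check by insulin signalling, averaged 101 ± 27.5 CPM in control and 63.5 ± 6.59 CPM in fetal libraries (log2 change 0.67, SE 0.18, edgeR adjusted p = 0.0248). HLF, a PAR bZIP factor under clock control, changed by 1.27 (adjusted p = 0.0356), while of the 11 tested clock genes only TIMELESS and HLF were called, and ARNTL, NR1D1 and DBP stood at 0.02 (adjusted p = 0.978), -0.00 (adjusted p = 0.992) and 0.04 (adjusted p = 0.959). PITX3, a homeobox factor known from eye and midbrain, had 871 counts over the control and 7 over the fetal libraries (ratio 118, exact 95% counting interval 56.98 to 294; edgeR adjusted p = 0.00317). The strand setting of the counting is unknown here, and reads of an overlapping gene cannot be told apart from those of PITX3. Several calls in these groups were lost without a library. IGFBP4 lost its call whichever library was left out except control 3 or fetal 4 (adjusted p up to 0.123). PEG10 lost its call without fetal 1 or fetal 2 (adjusted p up to 0.0593). ARNT2 lost its call whichever library was left out except fetal 3 (adjusted p up to 0.1203). THRB lost its call without control 4, fetal 1 or fetal 2 (adjusted p up to 0.0609). HSD11B1 lost its call without control 1, fetal 3 or fetal 4 (adjusted p up to 0.06903). FOXO3 lost its call without control 1, control 4, fetal 2 or fetal 3 (adjusted p up to 0.0797). HLF lost its call whichever library was left out except control 3 (adjusted p up to 0.0966). Library totals ended the calls of THRB (0.107), HSD11B1 (0.132), FOXO3 (0.3705) and HLF (0.131), by adjusted p.

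The called genes of the antigen presentation and innate signalling lists were all higher in control ventricles. B2M, beta-2-microglobulin, which pairs with class I heavy chains, had 254, 254, 355 and 277 CPM in control 1 to control 4, against 122, 103, 107 and 113 CPM in fetal 1 to fetal 4. It had the smallest p of the genes with a symbol, and its groups stood well apart (log2 change 1.36, SE 0.14, edgeR adjusted p = 1.19e-04). PSMB8, a subunit of the immunoproteasome, had 36.3, 34.9, 53.5 and 38.8 CPM in the control and 20.6, 27.7, 20.7 and 20.3 CPM in the fetal libraries (log2 change 0.87, SE 0.17, edgeR adjusted p = 0.00431). DQA, a class II alpha chain, averaged 9.78 ± 3.11 CPM in control and 4.92 ± 1.99 CPM in fetal libraries (log2 change 0.99, SE 0.31, edgeR adjusted p = 0.0486), though MHC genes are variable and have close copies. Of 12 tested members of the antigen presentation and interferon list 3, or 25%, were called, all higher. That share is close to the 22.1% called among tested genes with a symbol, against 14.9% of all tested genes. The list's median was 0.03, with 7 changes above and 5 below 0. The interferon-induced genes MX1, MX2 and ISG15 stood at -0.24 (adjusted p = 0.777), -0.31 (adjusted p = 0.819) and -0.36 (adjusted p = 0.624).

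Of 13 tested innate signalling genes 3, or 23.1%, were called, all higher, against 14.9% called and 7.53% higher over all tested genes. Among tested genes with a symbol, from which the lists are drawn, 22.1% were called, close to the share in this list. NFKBIA, the inhibitor of NF-kappaB, had 325, 236, 284 and 190.3 CPM in the control and 109, 142, 74.6 and 66.4 CPM in the fetal libraries (log2 change 1.40, SE 0.25, edgeR adjusted p = 0.00372), IRAK4, a kinase below the Toll-like receptors, changed by 0.76 (adjusted p = 0.0358), and TLR5, the flagellin receptor, by 1.80 (adjusted p = 0.0287). MRC1, the mannose receptor of tissue macrophages, had 25.6, 15.5, 15.6 and 29.1 CPM in the control and 5.99, 8.94, 13.8 and 11.8 CPM in the fetal libraries (log2 change 1.09, SE 0.28, edgeR adjusted p = 0.0237). CD53, a tetraspanin of leukocytes, and LYN, a Src family kinase of blood cells, changed by 0.90 (adjusted p = 0.0367) and 0.52 (adjusted p = 0.0288). XCL1, a chemokine of cytotoxic lymphocytes, averaged 3.66 ± 0.8796 CPM in control and 0.553 ± 0.188 CPM in fetal libraries (log2 change 2.72, SE 0.35, edgeR adjusted p = 3.89e-04), and GNLY, granulysin of the same cells, had 95 counts over the control and 9 over the fetal libraries (ratio 10.0, exact 95% counting interval 5.05 to 22.5; edgeR adjusted p = 0.00584). The T cell genes CD3E, CD247 and CD4 stood at -0.26 (adjusted p = 0.848), -0.43 (adjusted p = 0.646) and -0.44 (adjusted p = 0.747). IDO1, which breaks down tryptophan, had 154 counts over the control and 19 over the fetal libraries (ratio 7.68, exact 95% counting interval 4.75 to 13.1; edgeR adjusted p = 0.0249). MAPK13, a p38 kinase, and QPCT, which modifies the ends of secreted peptides, changed by 1.39 (adjusted p = 0.0218) and 2.27 (adjusted p = 0.00424).

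Summed myeloid markers lay higher in every control library, and summed lymphocyte markers overlapped between groups. The 3 myeloid markers in the table, MRC1, CD14 and LYZ, summed to 17.23 to 32.55 CPM in control and 6.703 to 15.95 CPM in fetal libraries. Most of this sum was MRC1, at 15.49 to 29.1 CPM in control and 5.987 to 13.75 CPM in fetal libraries. The 4 lymphocyte markers, CD3D, CD3E, CD4 and GNLY, summed to 1.395 to 3.087 CPM in control and 0.376 to 3.523 CPM in fetal libraries. Their part in the immune results was not tested. Several immune calls were lost without a library. DQA lost its call whichever library was left out except control 3 or fetal 1 (adjusted p up to 0.143). IRAK4 lost its call whichever library was left out except control 4 (adjusted p up to 0.0973). TLR5 lost its call without control 1, control 2 or fetal 4 (adjusted p up to 0.0725). MRC1 lost its call without control 1, control 4 or fetal 2 (adjusted p up to 0.0775). CD53 lost its call whichever library was left out except control 2 (adjusted p up to 0.0944). LYN lost its call whichever library was left out except control 3 or fetal 3 (adjusted p up to 0.0787). IDO1 lost its call without control 4, fetal 1 or fetal 4 (adjusted p up to 0.105). MAPK13 lost its call without control 1, fetal 2 or fetal 4 (adjusted p up to 0.0823). On library totals those of PSMB8 (0.118), DQA (0.1897), NFKBIA (0.0538), IRAK4 (0.352), CD53 (0.242), LYN (0.636) and MAPK13 (0.0738) ended, by adjusted p.

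**Figure D4:**
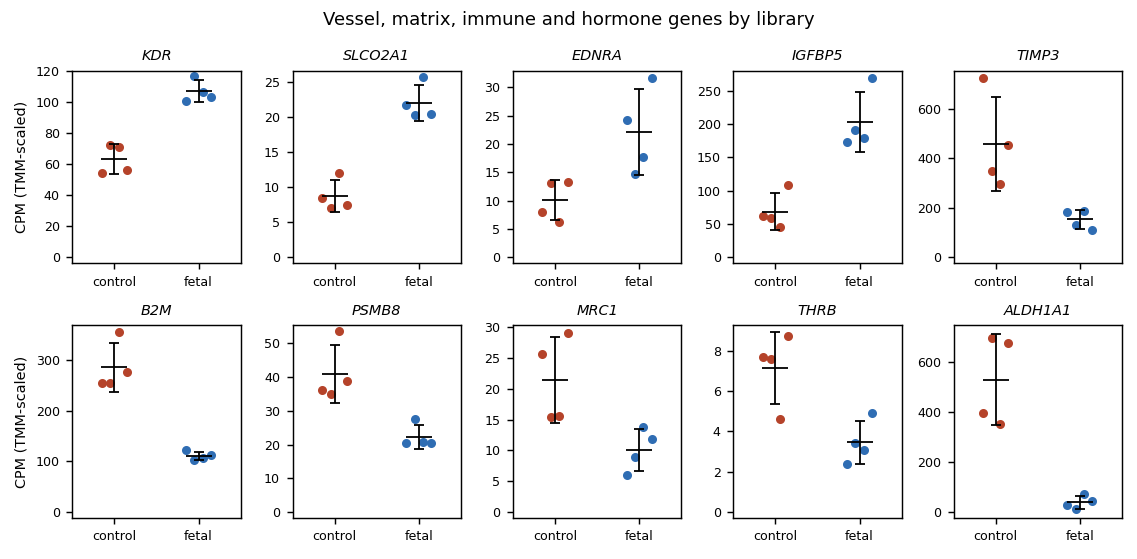
CPM of 10 genes of vessels, matrix, immunity and hormone response, with a point per library, control left and fetal right, and the mean with SD as bars (n = 4 each). KDR, SLCO2A1, EDNRA and IGFBP5 lie lower and TIMP3, B2M, PSMB8, MRC1 and ALDH1A1 higher in every control library, and THRB overlaps at control 3.

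Other called genes with a symbol belong to protein synthesis, folding, breakdown and transport. The ribosomal protein genes RPSA and RPL23A fell by log2 changes of -0.45 (adjusted p = 0.0277) and -0.45 (adjusted p = 0.0341), the 2 calls among 8 tested translation genes. PDIA5, a protein disulfide isomerase, CIB1, a calcium-binding partner of integrins, and ARFRP1, a Golgi GTPase, were lower at -0.85 (adjusted p = 0.0247), -0.68 (adjusted p = 0.0168) and -0.53 (adjusted p = 0.0147). PSMA6, a proteasome core subunit, TXNDC15, a thioredoxin-domain protein, and SPA17, a protein first found in sperm, were higher at 0.55 (adjusted p = 0.0228), 0.51 (adjusted p = 0.0326) and 1.14 (adjusted p = 0.00697). Of 27 tested solute carriers only SLCO2A1 and SLC25A20 were called, or 7.41% against 14.9% of all genes and 22.1% of those with a symbol. The list of cytokines and receptors chosen by the start of their symbols, which leaves out XCL1 and TGFB1, had no called gene among 7 tested, with IL15, a lymphocyte growth factor, at 1.37 (adjusted p = 0.115), IFNAR2, a chain of the type I interferon receptor, at -0.38 (adjusted p = 0.302), and the others between them. CALM2, the 1 calcium handling gene tested, stood at 0.23 (adjusted p = 0.353), and of the 2 tested genes of mitochondrial biogenesis PPARG and PUS1 stood at 0.50 (adjusted p = 0.350) and -0.47 (adjusted p = 0.0969). Most of these calls were lost without a library. RPSA lost its call whichever library was left out except control 3 or fetal 4 (adjusted p up to 0.0881). RPL23A lost its call whichever library was left out except control 3 (adjusted p up to 0.106). PDIA5 lost its call without control 1, control 2, control 4, fetal 1 or fetal 2 (adjusted p up to 0.0861). CIB1 lost its call without control 2 or fetal 2 (adjusted p up to 0.0578). ARFRP1 lost its call without control 4 (adjusted p = 0.0539). PSMA6 lost its call without control 4, fetal 1, fetal 2 or fetal 4 (adjusted p up to 0.0697). TXNDC15 lost its call whichever library was left out except control 3 or fetal 3 (adjusted p up to 0.0943). On library totals PSMA6 (0.424), TXNDC15 (0.633) and SPA17 (0.0605) were not called, by adjusted p.

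**Figure D5:**
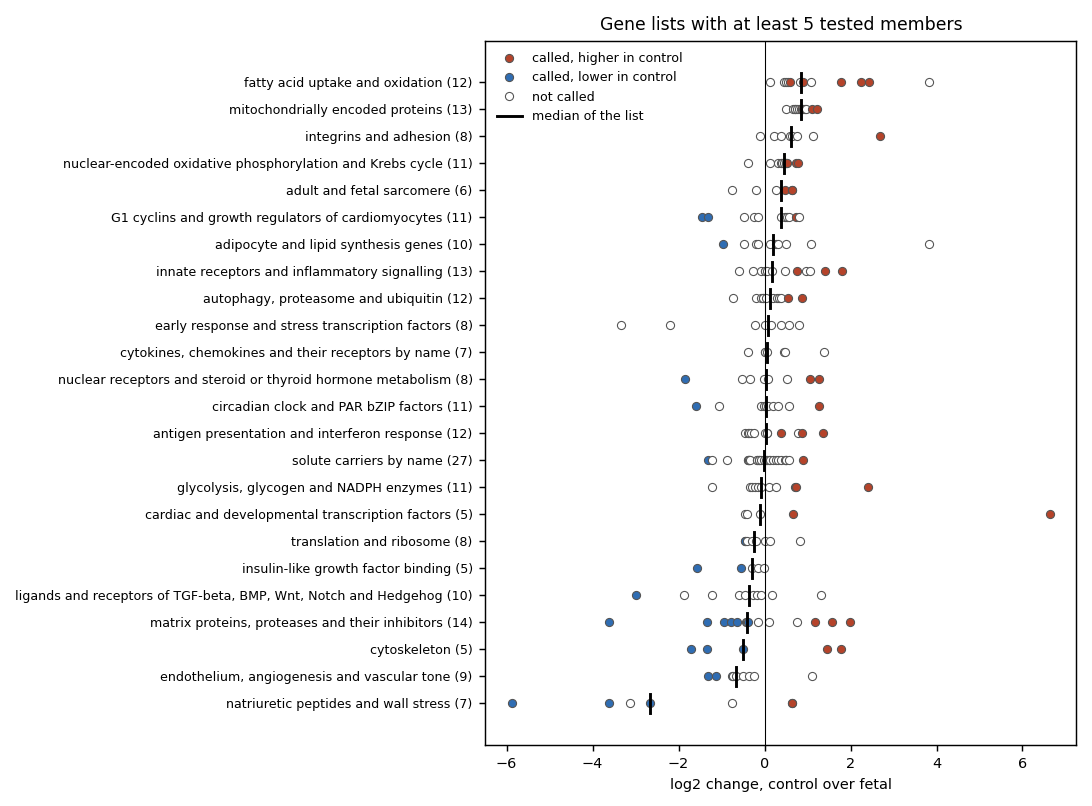
Log2 change, control over fetal, of each tested member of the 24 gene lists with at least 5 tested members (number in parentheses), red where called higher, blue where called lower and white where not called, with the list median as a black bar. Medians run from -2.66 for natriuretic peptides and wall stress to 0.85 for fatty acid uptake and oxidation, beside -0.00262 over all 12861 genes.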

How the data were processed

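mRNA libraries were made with a stranded kit and sequenced as paired reads, per the labels' protocols. The authors deposited raw counts per gene for 12 libraries in 1 table of 27054 rows, of which 827 carry a symbol, 24377 repeat the identifier and 1850 are numbered copies of a shared name. The sources used here do not give the aligner, counter, build, strand setting or handling of multiply mapped reads.

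Counts of the 4 control and 4 fetal libraries were tested with edgeR 4.0.16 in R 4.3.3 (filterByExpr by group, TMM factors, robust quasi-likelihood fit, glmQLFTest), control over fetal, with Benjamini-Hochberg adjustment over 12861 genes and calls at an adjusted p under 0.05. CPM values are counts scaled to the TMM-adjusted library total. Intervals on summed counts are exact at 95% and cover counting error only, since reads without molecular identifiers are not independent molecules. Gene lists are described by their counts of calls and their median, with no set test.

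Genes named are, per direction, the 15 largest changes with at least 5 CPM in the higher group, the called members of each list (or the 2 with the smallest p where none was called), a panel of 11 genes, and other called genes with a symbol. Uncalled genes outside this rule were chosen after their values were seen. Some called genes with a symbol are counted but not reported here by name. The members and lists were chosen with earlier results of these data known.

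Alternatives were other size factors, library totals, TMM without mitochondrial genes, other filters on low counts, DESeq2 1.42.0, limma-voom (limma 3.58.1), a fit on 12 libraries, a replicate block, glmTreat and leaving out each library. On simulated counts for this comparison (12720 genes, 200 of them changed) edgeR recovered 4.55% of 1.5-fold, 55.2% of 2-fold and 97% of 4-fold changes. It called 6 unchanged genes. In that setting, with 4 libraries per group, changes under 2-fold were often missed. The data had 1913 calls, and the adjusted p depends on how many genes change, so these rates need not hold for the data. Of the calls in the data 191 higher and 152 lower were under 1.5-fold.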

Additional observations from a re-analysis of the deposited data

Results flagged for a closer look

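In 12 of 234 groups of 4 libraries, about the share that chance gives (1 in 20), 1 library lay far from the other 3 by Dixon's criterion. Among mitochondrial genes, ND3 stood at 14280 CPM in control 3, with the other control libraries at 10240 to 10780 CPM. ATP5PO stood at 927.6 CPM in control 1 (others 1112 to 1143 CPM) and NDUFB6 at 426.3 CPM in fetal 3 (others 210.1 to 233.6 CPM). For LPL the separate library was fetal 2 at 72.98 CPM (others 110.1 to 113.2 CPM), and for PPARG it was control 2 at 2.301 CPM (others 4.209 to 4.614 CPM).

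Among matrix and stress genes, BGN stood at 86.05 CPM in control 3 (others 68.81 to 71.04 CPM), SPP1 at 4.716 CPM in control 3 (others 1.347 to 1.663 CPM) and FHL1 at 34.36 CPM in fetal 4 (others 29.4 to 29.62 CPM). NPAS4 was at 0 CPM in control 2, with the other control libraries at 0.06786 to 0.08314 CPM, which is a few reads. PSMB8 stood at 27.66 CPM in fetal 2 (others 20.34 to 20.68 CPM) and XCL1 at 0.277 CPM in fetal 2 (others 0.6015 to 0.6901 CPM). PEG10 stood at 2.202 CPM in fetal 3 (others 4.868 to 4.976 CPM).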

How the results depend on the processing

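The 1913 calls (969 higher, 944 lower) became 3751 (342 and 3409) with library totals, 675 (348 and 327) in a fit on 12 libraries and 179 (68 and 111) with glmTreat against 2-fold. Of the 1913 genes 1284 were also called with library totals and 669 in the fit on 12 libraries. Counts stayed within 1.5 times under the other size factors, filters and tools, at 1862 to 2513. Leaving out 1 library gave 1228 to 2226 calls, 631 to 1167 higher and 588 to 1059 lower. The difference in the share of counts on mitochondrially encoded protein genes, 13.0 percentage points, was 10.9 to 15.7 points without 1 library. Its two-sided exact permutation p was above 0.05 whichever control library was left out and 0.0286 whichever fetal library was. Every control share, at 43.5% to 50.0%, lay above every fetal share, at 26.7% to 41.2%, so the groups stayed apart in each of these fits. With unequal groups this p takes few values, and its contrast between the fits does not show a dependence on the control libraries. Of the 104 called symbols 49 kept the call whichever library was left out and 55 lost it at least once. With library totals 72 of the 104 were called, and in the fit on 12 libraries 37. Not called on 12 libraries were, by edgeR adjusted p, KDR (0.0641), PYGM (0.113), HADHA (0.171) and COX1 (0.138). ND2 (0.178), ND3 (0.200), ND4 (0.197) and ATP6 (0.246) were not called there either.

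Replicate numbers are shared by the groups, but the pairing criterion, a correlation over 0.1 in every same-numbered pair, was not met. The correlations of the deviations ran from -0.0994 to 0.167, with 2 of the 4 pairs over 0.1, at 0.139 and 0.167, and 2 of 4 control libraries correlating best with their own number. With the replicate block 2049 genes were called, 1071 higher and 978 lower, 1724 of them shared. This block kept 92 of the 104 called symbols, and NPPB (adjusted p = 0.139) and CCN2 (adjusted p = 0.0594) were among those it did not call.

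For single genes 9 values under an alternative had the opposite sign, and the cause was not tested. These are all of uncalled genes; with library totals 1 called gene with a symbol, not reported here by name, also had the opposite sign. With library totals the log2 changes of MYOZ2, CALM2, TXN and RPA1 were -0.0874, -0.155, -0.363 and -0.418. Without 1 library TXN ranged from -0.0567 to 0.135, RPA1 from -0.0883 to 0.140 and SOD1 from -0.467 to 0.130. The sign turned without control 3 for TXN, without control 1, control 4 or fetal 3 for RPA1 and without control 2 for SOD1. Genes with few reads, such as NPAS4, FST, GNLY and RGS4, are limited by depth.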
